A study of Bos taurus with 16 samples.

Results

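The genes described here are the cytosolic class I aminoacyl-tRNA synthetases that the deposited bovine count table lists under their older symbols. They are CARS (now CARS1), EPRS (EPRS1), IARS (IARS1), LARS (LARS1), MARS (MARS1), RARS (RARS1), WARS (WARS1) and YARS (YARS1). They were chosen by symbol and not by a cut on their values, though with earlier results of these data known. They make up 8 of the 36824 entries of the table. All 8 were found, and all 8 passed the filter on low counts in every comparison.

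Aminoacyl-tRNA synthetases join each amino acid to its tRNA, the step that sets the meaning of the codons during translation. Class I enzymes share a catalytic domain with a Rossmann fold, whereas class II enzymes are built around an antiparallel beta sheet. EPRS carries a class I glutamyl-tRNA synthetase and a class II prolyl-tRNA synthetase in a single protein. In animal cells EPRS, IARS, LARS, MARS and RARS sit together in the multi-synthetase complex, while CARS, WARS and YARS lie outside it. Growing follicles depend on protein synthesis in the somatic cells around the oocyte, and these enzymes supply the charged tRNAs for it.

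RNA was measured in cumulus cells, which surround the oocyte of Bos taurus, and in granulosa cells, which line the follicle wall. Follicles came from the ovary bearing the corpus luteum (ipsilateral) or from the opposite ovary (contralateral), and the series title names proximity of the corpus luteum as the question. Cumulus and granulosa cells from either side make 4 groups, with 4 pools each and material from 3 animals in a pool, 16 libraries in all. No genotype, breed, age or drug is given, and the labels do not tell whether pools share animals, so p-values measure the spread between these pools.

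Sequencing depth ran from 10.1 M to 21.9 M (mega) counts in a library. In cumulus cells the ipsilateral libraries were shallower, 13.2 ± 2.54 M (SD, n = 4) against 17.6 ± 2.20 M (exact two-sided permutation p = 0.0571, adjusted 0.114 over 2 tests, smallest possible 0.0286). In granulosa cells the totals were 17.5 ± 2.99 and 16.9 ± 4.71 M (exact permutation p = 0.771). A member had between 202 counts (CARS) and 11402 counts (EPRS) in a library, and counting error alone gives a coefficient of variation of at most 7.04%. Only 1368 of the 36824 entries carry a gene symbol, while 27607 carry an Ensembl identifier and 7849 a LOC identifier. Genes were looked up by symbol alone, so a gene not found by name may still be in the table. The marker list for follicular somatic cells had none of its 21 symbols among the named entries, so the labelled cell types were not checked by their defining markers. Oocyte transcripts stood apart in contralateral cumulus library 4, where BCL2L10 reached 110 and H1FOO 91.3 CPM, and in library 2, where they reached 9.60 and 8.92 CPM. Contralateral granulosa library 3 also stood apart in markers of other cells. It held 31.5 CPM of CFAP44 and 19.3 CPM of WDR63, both cilium genes, against at most 1.92 and 1.17 CPM in the other granulosa libraries. BCL2L10 and H1FOO were at 5.46 and 5.17 CPM there, against at most 1.13 and 0.265 CPM. CPM are counts per 1 M counts of a library after scaling of the libraries with the trimmed mean of M values (TMM). Levels are compared only within a gene, because CPM are not corrected for transcript length.

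Of the 8 synthetases, 6 were lower in cumulus than in granulosa cells, and none was higher. WARS differed most, by 2.28-fold, followed by EPRS (1.60-fold), MARS (1.41-fold), YARS (1.33-fold), IARS (1.25-fold) and RARS (1.20-fold). LARS was at nearly the same level in both cell types, and CARS did not pass the test. All calls use edgeR's quasi-likelihood F-test with Benjamini-Hochberg adjustment over 18038 entries and an adjusted p under 0.05. Of all entries tested, 60.2% were called in this comparison and 30.3% were called lower in cumulus cells, against 6 of 8 members. The median log2 fold change was -0.42 over the members and 0.03 over all entries. In such bulk samples, fewer cells of a type and less RNA per cell cannot be told apart.

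WARS, the tryptophanyl-tRNA synthetase, is also known as a gene induced by interferon gamma. Its level was 84.4, 97.9, 77.0 and 89.3 CPM in the ipsilateral cumulus libraries and 89.9, 85.4, 80.8 and 96.7 CPM in the contralateral ones. In granulosa cells it was 229, 167, 209 and 169 CPM on the ipsilateral side and 234, 197, 193 and 224 CPM on the contralateral side. Every granulosa library lay above every cumulus library. Cumulus libraries averaged 87.7 ± 7.29 and granulosa libraries 203 ± 25.8 CPM (SD, n = 8), a log2 fold change (cumulus minus granulosa) of -1.19 ± 0.08 (SE) with an edgeR adjusted p of 5.21e-09. None of the 30 symbols of the interferon gamma response list was among the named entries, so no other gene of that response is set beside it.

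EPRS had 333, 345, 307 and 363 CPM in ipsilateral cumulus libraries and 376, 362, 311 and 362 CPM in contralateral ones. The granulosa libraries held 563, 534, 544 and 527 CPM (ipsilateral) and 591, 565, 535 and 607 CPM (contralateral). The cell types did not overlap, and the spread was small within each of them. The means of 345 ± 25.6 and 558 ± 28.8 CPM (SD, n = 8) gave a log2 fold change of -0.68 ± 0.05 (SE), edgeR adjusted p = 2.57e-08.

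MARS, the methionyl-tRNA synthetase, charges both the initiator and the elongator tRNA of methionine. Per RefSeq it overlaps DDIT3, which bears on its counts as described at the end. Its values were 119, 113, 125 and 128 CPM in ipsilateral cumulus, 114, 123, 94.3 and 125 CPM in contralateral cumulus, 181, 137, 163 and 162 CPM in ipsilateral granulosa and 184, 170.5, 143 and 197 CPM in contralateral granulosa libraries. Again no granulosa library was as low as the highest cumulus library. Cumulus cells averaged 118 ± 10.9 and granulosa cells 167 ± 20.4 CPM (SD, n = 8), with a log2 fold change of -0.49 ± 0.08 (SE), edgeR adjusted p = 5.70e-05. WARS, EPRS and MARS were the 3 members without overlap, and 14.9% of all entries lay wholly lower in cumulus cells in this way.

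The other 3 members that passed had overlapping ranges. YARS, the tyrosyl-tRNA synthetase, ran from 78.3 to 106 CPM in cumulus and from 96.5 to 139 CPM in granulosa libraries (log2 fold change -0.42 ± 0.08 SE, edgeR adjusted p = 3.51e-04). IARS, which charges isoleucine tRNA, ran from 58.3 to 84.8 and from 68.1 to 105 CPM (-0.32 ± 0.09, edgeR adjusted p = 0.00520). RARS, the arginyl enzyme, ran from 177 to 209 and from 205 to 271 CPM (-0.26 ± 0.06, edgeR adjusted p = 8.12e-04). Each of the 6 called members passed the test in all 25 alternative analyses of this comparison.

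LARS, the leucyl-tRNA synthetase, is also known as a leucine sensor upstream of mTORC1. Its libraries held 186, 189, 177 and 169.9 CPM (ipsilateral cumulus), 161, 175, 161 and 175 CPM (contralateral cumulus), 179, 175, 179 and 166.2 CPM (ipsilateral granulosa) and 177, 180.0, 156 and 200.2 CPM (contralateral granulosa). It varied least of the 8, by 1.28-fold between its lowest and highest library. The cell type means were 174 ± 10.4 and 176 ± 12.6 CPM (SD, n = 8). The 95% interval of the log2 fold change was -0.13 to 0.12 around a value near 0, whose sign turned under several alternatives, and the edgeR adjusted p was 0.962.

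CARS is the enzyme that charges cysteine tRNA and lies outside the complex. Ipsilateral cumulus libraries held 20.3, 18.4, 20.9 and 19.7 CPM, contralateral cumulus libraries 30.5, 28.3, 59.1 and 33.0 CPM. Ipsilateral granulosa libraries held 59.7, 41.2, 27.1 and 34.5 CPM, contralateral granulosa libraries 29.5, 23.8, 51.9 and 29.3 CPM. The ipsilateral cumulus libraries were the lowest 4 of the 16 and close together, while each other group had a library at 51.9 CPM or above. Between cell types the log2 fold change was -0.42 ± 0.20 (SE), edgeR adjusted p = 0.0809. It passed when contralateral cumulus library 3 (adjusted p = 0.0135), ipsilateral granulosa library 3 (0.0433) or contralateral granulosa library 2 (0.0475) was left out.

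**Figure D1:**
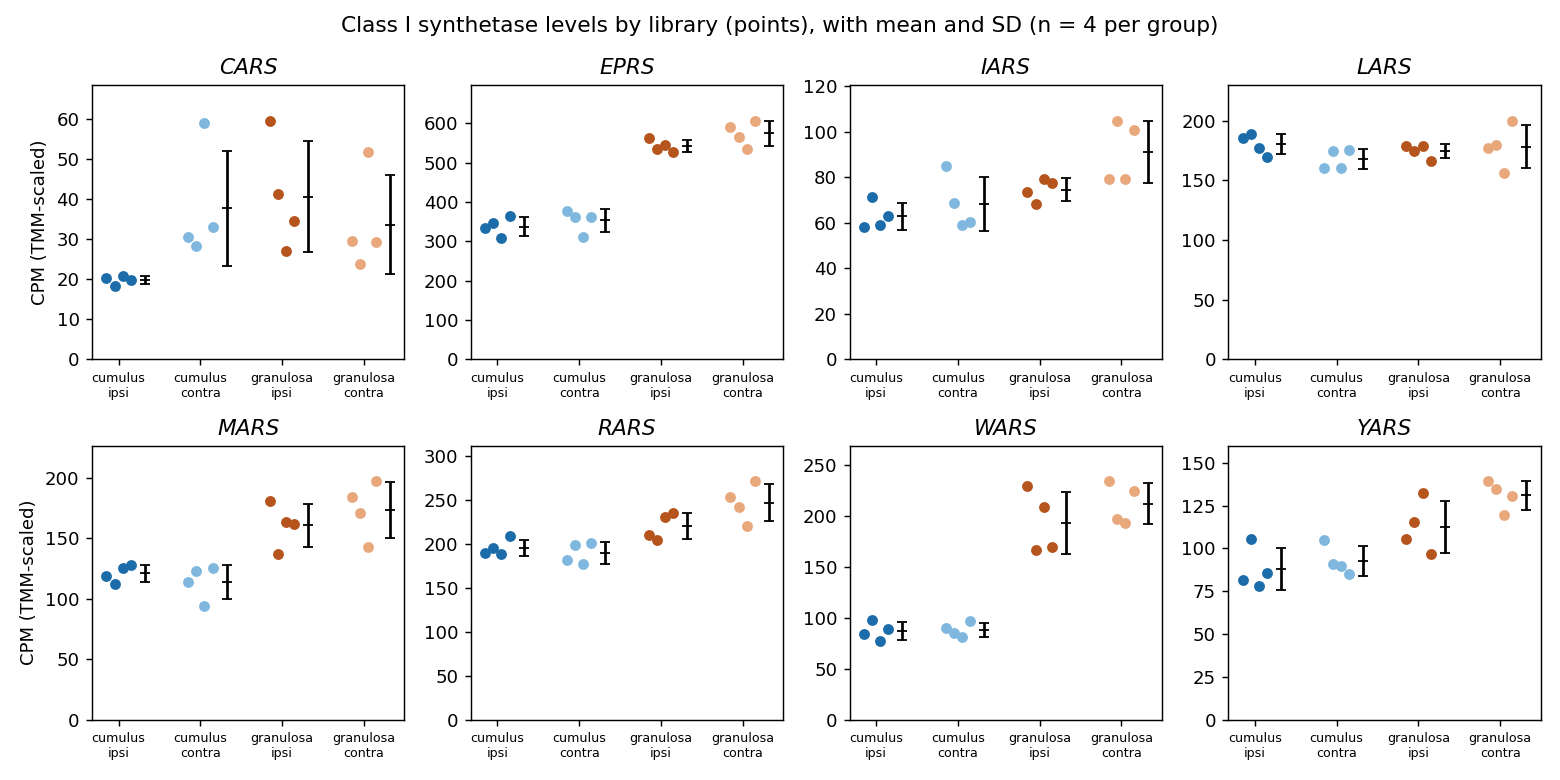
Level of each synthetase in every library, in TMM-scaled CPM on a linear axis from 0, with 1 panel per gene; points are the 4 libraries of a group and the bar is the mean with its SD. WARS, EPRS and MARS separate the cumulus from the granulosa libraries, LARS does not, and the 4 ipsilateral cumulus libraries of CARS sit between 18.4 and 20.9 CPM.

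Each side of the ovary was then examined alone. The 2 comparisons use different libraries but 1 shared estimate of the spread. Among ipsilateral libraries, 5 of 8 members were lower in cumulus cells, namely CARS, EPRS, MARS, WARS and YARS, where 45.5% of all entries were called and 24.0% called lower. Among contralateral libraries, 6 of 8 were lower, namely EPRS, IARS, MARS, RARS, WARS and YARS, where 47.6% of all entries were called and 23.8% called lower. WARS fell by 1.13 on the log2 scale on the ipsilateral side and by 1.25 on the contralateral side (SE 0.12 for both).

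CARS was 2.02-fold lower in cumulus than in granulosa cells on the ipsilateral side, with a log2 fold change of -1.02 ± 0.29 (SE, n = 4 against 4), edgeR adjusted p = 0.00880. On the contralateral side the value was 0.17 ± 0.28, adjusted p = 0.643, and it was -0.14 without contralateral cumulus library 3 and 0.47 without contralateral granulosa library 3. For IARS the values were -0.23 ± 0.12 (ipsilateral, adjusted p = 0.150) and -0.41 ± 0.12 (contralateral, adjusted p = 0.0129). For RARS they were -0.15 ± 0.08 (adjusted p = 0.134) and -0.37 ± 0.08 (adjusted p = 0.00125). These pairs were not shown to differ, since no member passed the test of the side effects against each other, which is the same contrast.

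YARS on the ipsilateral side lay near the threshold, and its value stayed between -0.44 and -0.25 with single libraries left out. Its log2 fold change of -0.34 ± 0.12 (SE, edgeR adjusted p = 0.0241) lost its call without ipsilateral cumulus library 1 (adjusted p = 0.0731), 3 (0.0845) or 4 (0.0658), or without ipsilateral granulosa library 2 (0.0527) or 3 (0.101). IARS on the contralateral side lost its call without contralateral cumulus libraries 2 and 4, those with oocyte transcripts (adjusted p = 0.115).

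**Figure D2:**
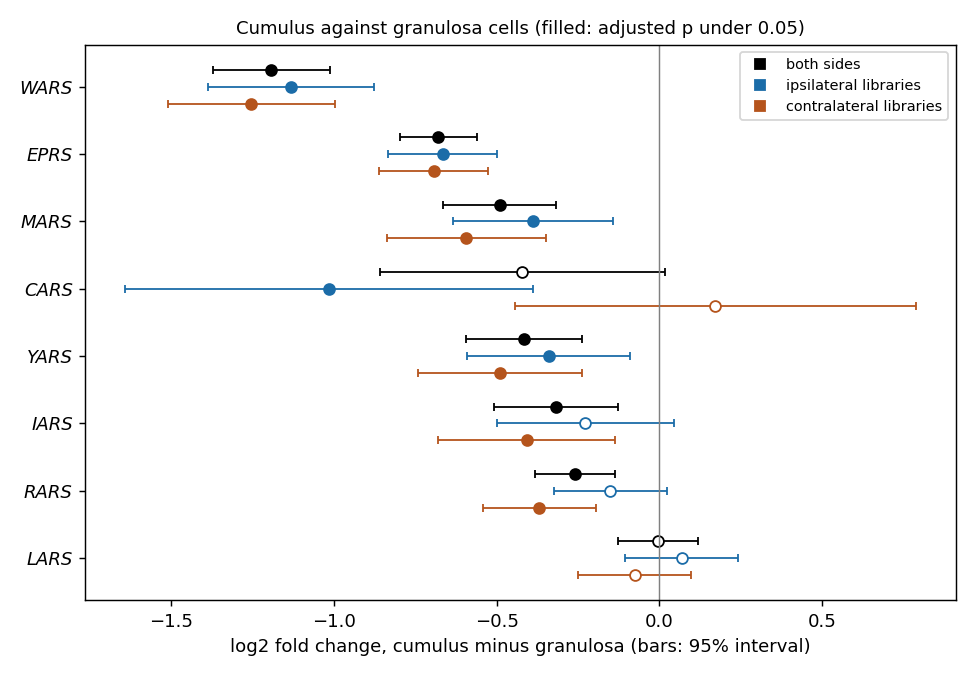
Log2 fold change between cumulus and granulosa cells for each synthetase, with its 95% interval, over both sides and within each side; values below 0 are lower in cumulus cells and filled points passed an adjusted p of 0.05. WARS lies farthest from 0 in each of the 3 comparisons, and CARS is the member whose ipsilateral value (-1.02) and contralateral value (0.17) lie farthest apart.

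Other synthetases in the table gave a mixed picture. The remaining cytosolic class I enzymes found by symbol were VARS and QARS. VARS, for valine, was 1.47-fold lower in cumulus cells, 134 ± 12.02 against 199 ± 20.2 CPM (SD, n = 8), edgeR adjusted p = 1.15e-05. QARS, for glutamine and also in the multi-synthetase complex, had 88.7 ± 8.33 against 101 ± 10.4 CPM and just missed the threshold (-0.17 ± 0.07, adjusted p = 0.0509). Of 9 class II enzymes, 5 were lower in cumulus cells, 3 were higher and GARS did not pass, with a median log2 fold change of -0.34. TARS (1.69-fold), SARS (1.79-fold) and AARS (1.52-fold), for threonine, serine and alanine, were lower. TARSL2 (now TARS3), a threonyl-tRNA synthetase related to TARS, was 3.54-fold higher in cumulus cells, 51.6 ± 7.07 against 14.8 ± 4.43 CPM, edgeR adjusted p = 2.87e-07.

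The lists for mitochondrial synthetases, scaffold proteins of the multi-synthetase complex, tRNA handling and amino acid sensing upstream of mTORC1 had no symbol among the named entries. The levels of these genes were therefore not examined. Of 50 symbols for the amino acid response and targets of ATF4, a transcription factor that drives many synthetase genes when amino acids are short, only FAM129A (NIBAN1) was found. It was higher in cumulus cells, 210 ± 20.5 against 146 ± 23.9 CPM (log2 fold change 0.54 ± 0.10 SE, edgeR adjusted p = 1.77e-04). A part of ATF4 in the levels of the members was not tested.

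Of the markers of other cells found by name, PF4 and MUC16 were lower in cumulus cells and ARMC4 was higher (edgeR adjusted p = 2.42e-05, 0.0294 and 4.34e-08), while BCL2L10, CFAP44, WDR63 and TTC25 did not pass and H1FOO was not tested. PF4, the 1 of 19 leukocyte and platelet markers found, ran from 0 to 0.242 CPM in cumulus and from 0.450 to 3.86 CPM in granulosa libraries. MUC16, the 1 of 11 surface epithelium markers found, was 0 in all ipsilateral cumulus libraries and reached 2.08 CPM in contralateral ones. Its level was uneven among granulosa libraries. Ipsilateral granulosa library 3 held the most, 44.4 CPM, followed by contralateral granulosa library 3 (24.3 CPM) and ipsilateral granulosa library 1 (9.998 CPM). The remaining granulosa libraries held at most 0.731 CPM, and ipsilateral libraries 2 and 4 and contralateral library 4 held 0. The 4 of 17 ciliated epithelium markers found summed to 72.9 to 118 CPM in cumulus and 14.3 to 88.9 CPM in granulosa libraries, the latter maximum in contralateral granulosa library 3. Most of the sum in cumulus cells was ARMC4, at 68.2 to 113 CPM against 10.6 to 27.9 CPM in granulosa cells. Over both sides the other 3 had log2 fold changes below 0. On the ipsilateral side all 4 lay above 0 (0.52 to 2.37), and only ARMC4 passed the test. On the contralateral side, which includes granulosa library 3, the other 3 lay below 0 (-3.37 to -1.36). Of these 3, only TTC25 passed there (edgeR adjusted p = 0.0248). The 2 of 18 oocyte markers found summed to 0.670 to 1.37 CPM in ipsilateral cumulus, 0.824 to 201 CPM in contralateral cumulus, 0.0643 to 1.39 CPM in ipsilateral granulosa and 0 to 10.6 CPM in contralateral granulosa libraries. Without contralateral granulosa library 3 the number of members called was again 6 between cell types, 5 on the ipsilateral and 6 on the contralateral side. Leaving out contralateral cumulus libraries 2 and 4, those with oocyte transcripts, took the call from IARS on the contralateral side (edgeR adjusted p = 0.115). Leaving out contralateral cumulus library 4 and contralateral granulosa library 3 together changed no member's call between cell types. The part of these cells in the results was not tested beyond leaving out libraries.

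The question of the series was then asked in cumulus cells, ipsilateral against contralateral. No member passed the test, as none of 16323 entries did with edgeR (0% called). At an unadjusted p under 0.05 there were 1791 entries, or 11%, and 1 of them was a member, CARS. DESeq2 called 120 entries (0.601%), CARS among them, and limma-voom called 0.

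CARS was the 1 member whose ipsilateral and contralateral cumulus libraries did not overlap, at 18.4 to 20.9 CPM against 28.3 to 59.1 CPM. Of all entries, 5.02% did not overlap and 2.25% lay wholly lower on the ipsilateral side. The means were 19.8 ± 1.06 and 37.7 ± 14.4 CPM (SD, n = 4), a log2 fold change of -0.94 ± 0.22 (SE) with a 95% interval of -1.47 to -0.41. The edgeR adjusted p was 0.324, while DESeq2 gave an adjusted p of 0.0206 and limma-voom 0.469. The adjusted p ran from 0.0206 to 0.583 over 17 alternatives, and leaving out contralateral cumulus library 3 gave -0.63. Without contralateral cumulus libraries 2 and 4 it was -1.19 (edgeR adjusted p = 0.0817). Depth also differed between these groups, as given above, and its part was not tested.

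For the other 7 members the log2 fold changes between sides in cumulus cells lay between -0.13 (IARS) and 0.09 (LARS), with edgeR adjusted p from 0.686 to 0.936. The IARS means were 62.8 ± 5.96 and 68.2 ± 11.8 CPM (SD, n = 4), and its 95% interval of -0.44 to 0.18 was the widest of the 7. For WARS the means were 87.2 ± 8.77 and 88.2 ± 6.81 CPM, with an interval of -0.28 to 0.21. With 4 pools a side, differences of any size inside such intervals remain possible. The intervals are not the limit of what the test can call. CARS, with an interval of -1.47 to -0.41, was not called either (edgeR adjusted p = 0.324).

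In granulosa cells no member passed either, and edgeR called 0 of 16411 entries (0%). At an unadjusted p under 0.05 there were 579 entries, or 3.53%, and 1 of them was a member, IARS. DESeq2 called 1 entry (0.00376%), which was no member, and limma-voom called 0. Of the 8 members, 7 had a log2 fold change below 0, as had 49.0% of all entries. No member was free of overlap between the sides, against 2.04% of entries (0.999% wholly lower on the ipsilateral side).

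IARS measured 73.3, 68.1, 79.4 and 77.5 CPM on the ipsilateral side and 79.1, 105, 79.4 and 101 CPM on the contralateral side of the granulosa comparison. Contralateral libraries 2 and 4 stood clear of the ipsilateral ones. The log2 fold change was -0.30 ± 0.12 (SE), edgeR adjusted p = 0.9996. YARS gave -0.23 ± 0.12 (113 ± 15.4 against 131 ± 8.43 CPM) and RARS -0.18 ± 0.09 (205 to 235 against 220.0 to 271 CPM), both with an adjusted p of 0.9996. CARS gave 0.25 ± 0.30 with a 95% interval of -0.49 to 0.99. Leaving out ipsilateral granulosa library 1 gave -0.014, and leaving out library 3 of the contralateral granulosa group gave 0.55.

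**Figure D3:**
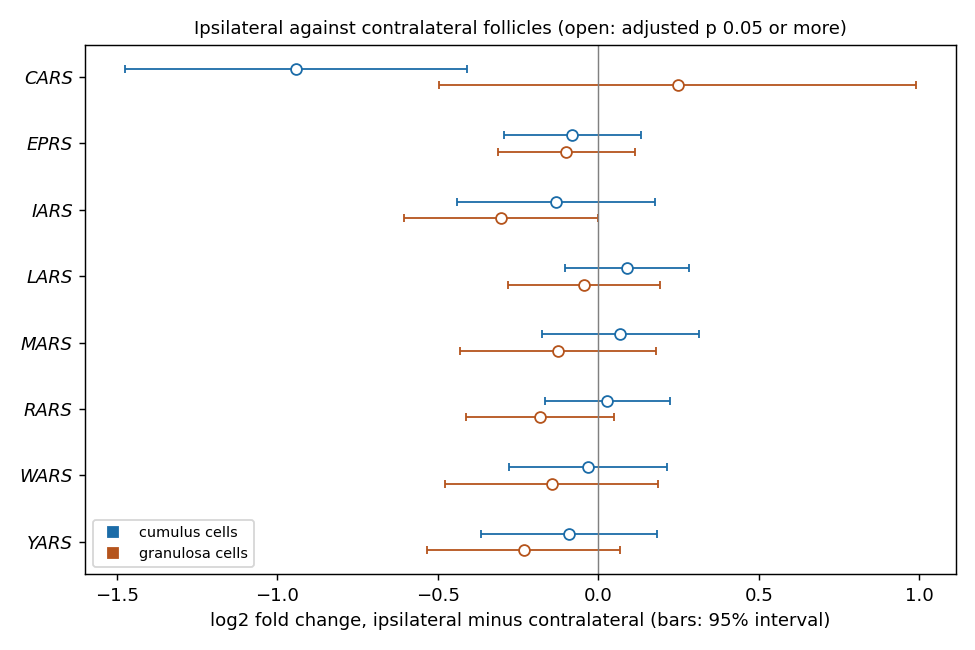
Log2 fold change between ipsilateral and contralateral follicles for each synthetase, with its 95% interval, in cumulus and in granulosa cells; values below 0 are lower on the side of the corpus luteum. All points are open because no adjusted p was under 0.05, and CARS in cumulus cells (-0.94) lies farthest from 0.

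The side effects of the cell types were compared directly. EdgeR called 0 of 18038 entries (0%), with 1358 entries (7.53%) at an unadjusted p under 0.05. DESeq2 called 1 entry (0.00346%), which was no member, and limma-voom 0. For CARS the difference (cumulus minus granulosa) was -1.19 ± 0.40 (SE), edgeR adjusted p = 0.653. It was -0.88 without contralateral cumulus library 3 and -1.49 without contralateral granulosa library 3. The other 7 members lay between 0.03 (EPRS) and 0.22 (RARS).

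Set in order, the group means of EPRS, MARS and WARS showed a gap only between the cumulus and the granulosa groups. The neighbouring groups of IARS, LARS, RARS and YARS overlapped throughout. For CARS the ipsilateral cumulus group stood apart from the next, contralateral granulosa cells at 33.7 ± 12.5 CPM (SD, n = 4). Contralateral cumulus cells (37.7 ± 14.4 CPM) and ipsilateral granulosa cells (40.6 ± 13.9 CPM) followed with overlapping values.

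The members also differed in their spread between pools. The SD within groups on the log2 scale was 0.42 for CARS and between 0.09 (EPRS, LARS) and 0.18 (IARS) for the others. In ipsilateral cumulus cells the coefficient of variation of CARS was 5.36%, below the 7.04% that counting error gives in its shallowest library. In contralateral cumulus cells it was 38.1%. Single libraries ranked alike for several genes. Contralateral cumulus library 3 was the lowest of its group for EPRS, IARS, MARS, RARS and WARS and the highest for CARS. Contralateral granulosa library 3 was the lowest for EPRS, LARS, MARS, RARS, WARS and YARS and again the highest for CARS, and it is the library with the cilium and oocyte transcripts given above. Ipsilateral granulosa library 1 was the highest for 5 members, CARS among them. These library numbers are names only and pair nothing across groups.

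The genes with the most similar profiles were found among 742 named entries that were no members, by the root mean square difference of centred log2 CPM over the 16 libraries. A value of 0 would be an identical profile. The nearest to EPRS were ZNF804A (0.10) and AARS (0.12). NARS, the asparaginyl-tRNA synthetase, was nearest to both YARS (0.11) and IARS (0.13), followed by MDGA2 (0.15) for YARS and PHB (0.17) for IARS. VAMP3 (0.13) and MDGA2 (0.14) were nearest to MARS, WDYHV1 (0.10) and PHB (0.11) to RARS, and SEPT2 (0.18) and MRPL14 (0.20) to WARS. For LARS the nearest were WDYHV1 (0.12) and NARFL (0.14), both farther than a flat profile would be (0.09).

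The distances between members were measured in the same way. EPRS was nearest to MARS (0.16), MARS to RARS (0.15), IARS and YARS to each other (0.15), LARS to RARS (0.16) and WARS to EPRS (0.27). LARS was farthest from WARS (0.61). CARS was 0.53 from its nearest member, EPRS, about as far as it was from a flat profile (0.52). Its closest named entries were PQLC1 (0.30) and TMEM189 (0.36), which are low, at 2.69 and 7.03 CPM in cumulus and 4.13 and 10.7 CPM in granulosa cells. The third was GARS (0.37), named after its values were seen. All 3 were picked for likeness to CARS over these same libraries, so sharing its high libraries follows from the choice. Like CARS, all 3 had their highest value in ipsilateral granulosa library 1 (7.99, 23.2 and 131 CPM). In contralateral cumulus library 3 they had 5.07, 11.7 and 104 CPM, the highest of that group, and in contralateral granulosa library 3 they had 4.53, 10.5 and 88.9 CPM, again the highest.

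**Figure D4:**
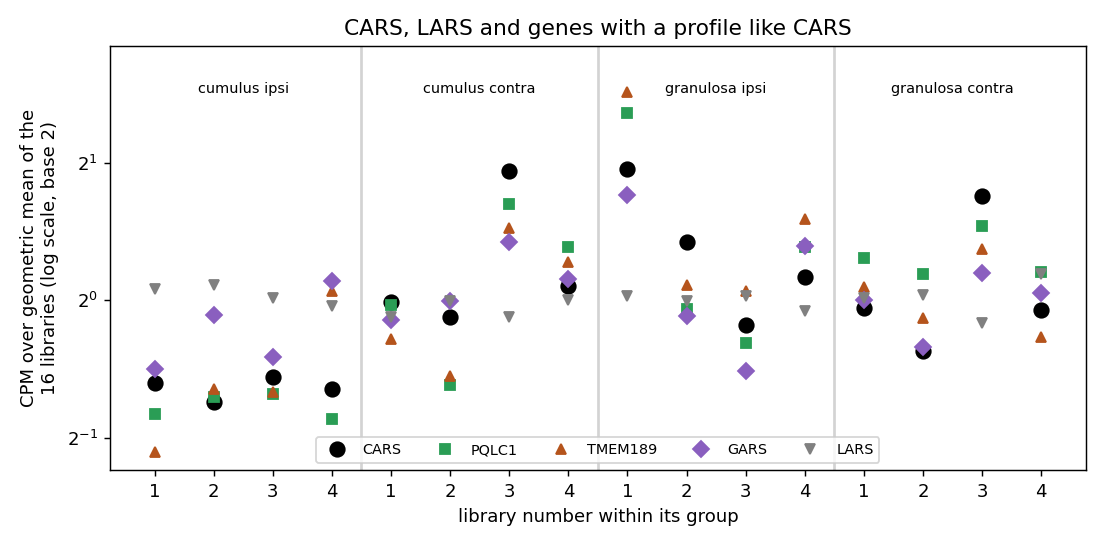
CPM of CARS, PQLC1, TMEM189, GARS and LARS in the 16 libraries, each divided by its geometric mean over the libraries, on a log axis of base 2; numbers on the x axis name the library within its group. PQLC1, TMEM189 and GARS were picked for likeness to CARS over these libraries. All 4 reach the highest value of the group in ipsilateral granulosa library 1, contralateral cumulus library 3 and contralateral granulosa library 3. In the last, TMEM189 and GARS (10.5 and 88.9 CPM) lie below their values in ipsilateral granulosa library 4 (12.2 and 102 CPM). LARS stays near 1.

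Some members were counted more than once. Of the 8, 7 had an Ensembl entry within 2% or 2 counts of their own in every library, and for IARS and MARS the counts were identical. WARS had none. For CARS the 2 entries differed by at most 1.49% and gave log2 fold changes of -0.94 and -0.95 between sides in cumulus cells. Per RefSeq (ARS-UCD2.0), MARS overlaps MIR2430 and DDIT3, which encodes a stress-induced transcription factor. RARS overlaps WWC1 and LOC101906156, YARS overlaps S100PBP and IARS overlaps a small noncoding gene. VARS, which is no member, overlaps LSM2. The kits used do not mark strand, so reads in these overlaps cannot be assigned with certainty. CARS, EPRS, LARS and WARS overlap no other gene there.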

How the data were processed

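The deposited table holds unnormalized counts per gene for all 16 libraries. Per the labels' protocols, column-purified, DNase-treated RNA was turned into cDNA by the SMART-Seq HT kit, followed by Nextera XT tagmentation and single-end sequencing. STAR, Trimmomatic, FastQC and DESeq2 appear in the submitters' processing notes. Not given in the sources used here are the build, the gene annotation and how reads were counted.

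EdgeR 4.0.16 (R 4.3.3, limma 3.58.1) was run on the counts as deposited: filterByExpr (minimum count 10, minimum total 15), TMM scaling, robust quasi-likelihood F-test and Benjamini-Hochberg adjustment over all entries tested. For the side of the ovary, only the 8 libraries of that cell type entered, and for all else the 16 with 4 group means. The SE is the size of the log2 fold change over the root of F. CPM are TMM-scaled over 16 libraries, except for the sums of tRNA entries, which use library totals alone. The fits were run on counts simulated with known changes, from the means, depths and spread of these data and independently for each library. That run cannot show how the fits behave with shared animals or with cells of other types in single libraries.

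Alternatives were DESeq2 1.42.0, limma-voom, RLE scaling, no filter, no robust option, all libraries in the side fits, repeats left out and libraries left out. Library totals without scaling factors were added after seeing the data. Members and lists were chosen with earlier results of these data known. All members are named, up to 4 found genes of a pathway list by adjusted p between cell types, and the 2 entries nearest in profile to each member. Intervals cover the spread between pools, and amplified reads are not independent molecules.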

Additional observations from a re-analysis of the deposited data

Results flagged for a closer look

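CARS in contralateral cumulus library 3, at 59.1 CPM, lay far from the other 3 libraries of its group, which held 28.3 to 33.0 CPM. Its gap to the nearest of them was 0.848 of the group's range, above the 95% critical value of 0.829 for 4 samples. This was the only such value among 32 groups of 4 libraries, 8 genes in 4 groups, and chance gives about 1 in 20. Without this library the CARS log2 fold change between sides in cumulus cells was -0.63 in place of -0.94.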

How the results depend on the processing

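Between cell types, 6 members were called and 6 to 7 over 25 alternatives, the seventh being CARS without the 3 single libraries named above. On the ipsilateral side 4 to 5 were called and on the contralateral side 5 to 6. For the side in granulosa cells and for the difference of side effects the number was 0 under every alternative run. In cumulus cells it was 0 except with DESeq2, which called 1, CARS. The cause was not tested. Of 1064 results for single members, 1035 kept direction and call, 6 lost a call, 4 gained one and 19 changed sign, none of the latter beyond 0.138 in size. LARS between cell types was 0.0069 with repeats left out, 0.085 with library totals alone, and -0.032 to 0.025 with single libraries left out, and on the contralateral side it was 0.031 with library totals alone. EPRS in the difference of side effects was -0.0061 with library totals alone and -0.021 to 0.075 without single libraries. WARS by side in cumulus cells was 0.020 without contralateral cumulus libraries 2 and 4 and -0.094 to 0.027 without single libraries. Single libraries left out gave -0.0042 to 0.12 for MARS by side in cumulus cells. In granulosa cells they gave -0.014 to 0.55 for CARS and -0.095 to 0.0046 for LARS by side. CARS between cell types on the contralateral side ran from -0.14 to 0.47. Library totals alone moved the median of all entries on the contralateral side from 0.03 to 0.14. No paired analysis was possible because the labels give no replicate numbers shared between groups and do not tell whether pools share animals. Depth limits CARS most, with 202 counts in its shallowest library.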

Other observations

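The table also lists tRNA genes, the substrates of these enzymes. Of 57 tRNA entries, 51 had a count, with 56 to 169 counts per library and 1851 in all, of which TRNAC-GCA, a cysteine tRNA, held 413. Their sum ran from 7.60 to 11.6 CPM in ipsilateral cumulus, 7.86 to 10.4 CPM in contralateral cumulus, 4.48 to 7.71 CPM in ipsilateral granulosa and 3.83 to 6.22 CPM in contralateral granulosa libraries. The labels name polyadenylated RNA as the molecule sequenced, so these counts are not a measure of mature tRNA.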
